A study of Mus musculus with 19 samples.

Results

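The C sites described here lie in mt-Rnr1 and mt-Rnr2, the genes for the small-subunit and large-subunit rRNA of the mitochondrial ribosome. They were taken from a table of hydrazine-aniline cleavage sequencing (HAC-seq) as every distinct entry on the mitochondrial chromosome assigned to either gene, with no cutoff on the measured values. This gave 394 of 118890 distinct sites, with 153 in mt-Rnr1 and 241 in mt-Rnr2, all on the plus strand. The cells were neural progenitor cells (NPCs) of the mouse cerebral cortex at embryonic day 17.5, grown on Matrigel with bFGF and EGF at 20 ng/mL each. Mettl8-cKO, a conditional knockout of Mettl8 whose Cre driver the labels do not name, was set against wild type (WT). HAC-seq was done on 3 cKO and 4 WT libraries from 8000 ng of total RNA, and RNA-seq on 6 cKO and 6 WT libraries from 300 ng. Whether libraries came from different cultures or animals is not stated, and each p-value below therefore reflects the scatter among these libraries, which may be technical.

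Both rRNAs are copied from the heavy strand as part of 1 long transcript and are cut out of it together with the tRNAs that flank them. They are then modified by dedicated enzymes, folded and joined with imported proteins to form the ribosome that makes the mitochondrially encoded subunits of the respiratory chain. METTL8 is a mitochondrial methyltransferase known for making 3-methylcytidine (m3C) in the anticodon loop of mitochondrial tRNAs. The HAC-seq chemistry opens the m3C base with hydrazine and cuts the chain at that point with aniline. A read from a cut molecule then starts 1 base downstream of the cytidine. The cleavage ratio of a site is the number of such read starts divided by the coverage, the number of reads at the site. No untreated library was analysed here, so read starts from natural RNA ends or from other breaks cannot be told apart from cleavage.

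The genotype labels were checked at the site of highest WT mean ratio in mt-tRNA-Thr, where the ratio was 2.10 ± 0.405% in cKO (SD, n = 3) and 94.4 ± 0.483% in WT (SD, n = 4). Mettl8 RNA itself lay between 59.3 and 80.9 CPM, read counts scaled to library size, in the 6 cKO RNA-seq libraries and between 35.9 and 58.6 CPM in the 6 WT libraries, so its gene-level count was not lower in cKO. The labels do not say which part of the gene was deleted, so a count over the whole gene does not check the knockout. Summed markers of neural stem cells and radial glia stood at 11058 to 15233 CPM in cKO and at 12489 to 15822 CPM in WT, and summed microglia markers stayed at or below 0.718 CPM in every library. Summed neuron markers stood at 96.4 to 195 CPM in cKO and 89.3 to 260 CPM in WT. Markers of the oligodendrocyte lineage stood at 227 to 460 CPM in cKO and 267 to 468 CPM in WT. Those of endothelium and of meningeal fibroblasts reached at most 3.30 and 3.48 CPM. RNA-seq totals ran from 11830839 to 15766429 counts in cKO and from 15096888 to 18863781 in WT. HAC-seq coverage summed over all distinct sites ran from 141870409 to 241671149 in cKO and from 170903471 to 243732230 in WT.

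By the RefSeq annotation of build GRCm38.p6, mt-Rnr1 spans positions 70 to 1024 of the mitochondrial chromosome and mt-Rnr2 spans positions 1094 to 2675. The tRNA genes TrnF (positions 1 to 68), TrnV (1025 to 1093) and TrnL1 (2676 to 2750) lie before, between and after them. Nucleotide numbers below count from 1 at the annotated start of each rRNA. The listed cytidines made up 15.9% of the bases of mt-Rnr1 and 15.2% of those of mt-Rnr2. Coverage of at least 50 reads in each of the 7 libraries was reached at 390 of the 394 sites (149 in mt-Rnr1 and 241 in mt-Rnr2), and the other 4, all in mt-Rnr1, entered no mean below.

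Most cytidines of the 2 rRNAs were cleaved in few molecules, and a small number stood far above the rest. In WT the median site had a mean ratio of 1.09% in mt-Rnr1 and 1.39% in mt-Rnr2. Of the 390 sites, 174 had a WT mean under 1%, 134 from 1% to 5%, 70 from 5% to 20% and 12 of at least 20%. The 12 highest sites divided into 7 in mt-Rnr1 and 5 in mt-Rnr2. A WT mean of at least 20% was thus seen at 3.08% of these sites, at 0.0435% of the 2300 sites of mitochondrial mRNAs and at 5.03% of the 358 sites annotated to nuclear rRNA genes, counted with the same coverage minimum. These shares were not tested against each other.

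Many sites of high ratio lay in short runs. Of the 46 sites with a WT mean of at least 10%, 40 lay in 13 runs whose neighbouring members were at most 10 bases apart. The listed cytidines are themselves close together, with 98 pairs at adjacent positions among all 394 sites, and neighbours share reads. The share of all sites that lie in such runs was not computed, so the runs are a description. One run covers nucleotides 434 to 447 of mt-Rnr1 with 5 such sites, another nucleotides 625 to 634 of mt-Rnr1 with 5 sites, and another nucleotides 1070 to 1072 of mt-Rnr2 with 3 adjacent sites. In the last of these the middle cytidine was the highest, with WT means of 17.9%, 37.5% and 19.5% at positions 2163, 2164 and 2165. With each rRNA divided into 4 stretches of equal length, none of the 32 sites in the 3′ stretch of mt-Rnr1 averaged 5% or more over the 7 libraries, against 10 or 11 sites in each of the other 3. In mt-Rnr2 each stretch held between 9 and 15 such sites. The absence of such sites from the 3′ stretch of mt-Rnr1 depended on cKO replicate 3. Without that library, positions 916 and 959 in this stretch averaged at least 5%.

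**Figure D1:**
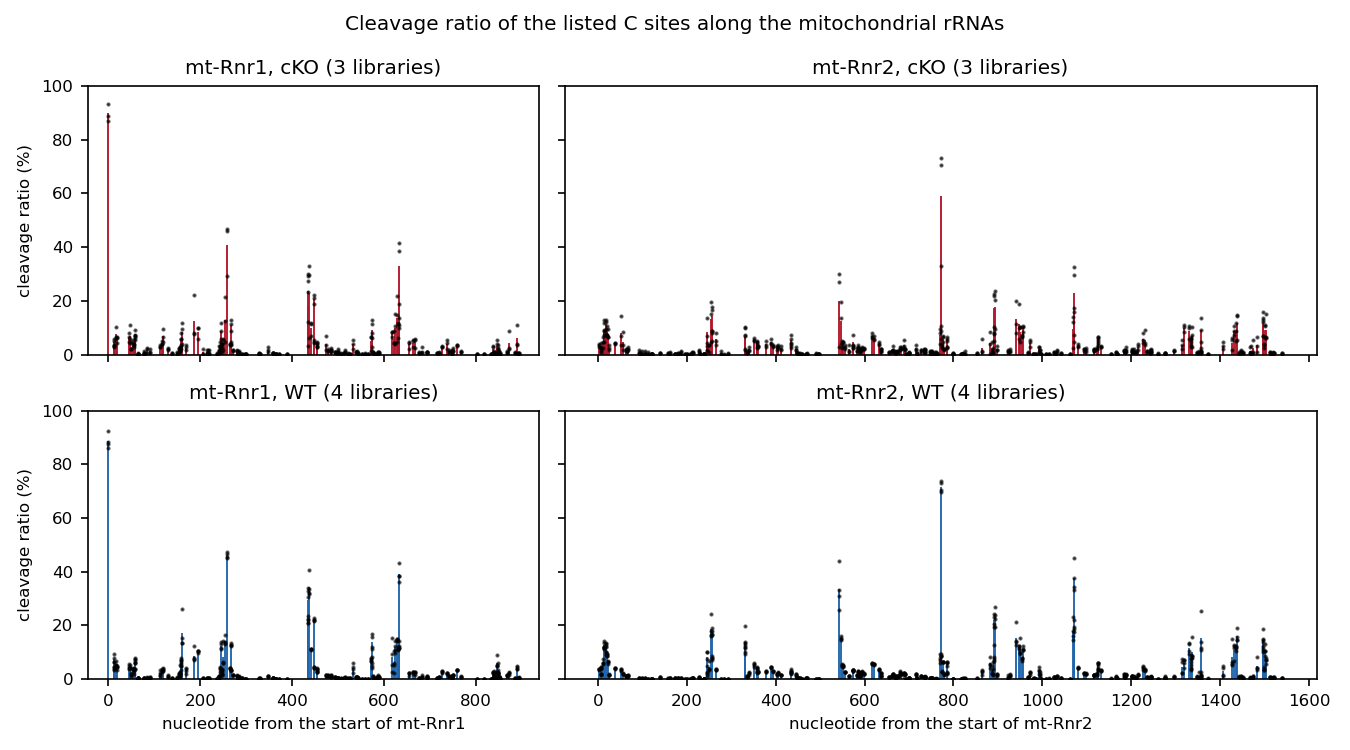
Cleavage ratio in percent (y axis) at the 390 C sites with sufficient coverage, by nucleotide from the annotated start of mt-Rnr1 and mt-Rnr2 (x axis), with cKO above WT. Lines give the group mean and black dots the single libraries (3 cKO, 4 WT): the same positions stand out in both genotypes, with the highest at nucleotide 0 of mt-Rnr1 and nucleotide 771 of mt-Rnr2.

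The highest ratio of all was at position 69, the first listed site of mt-Rnr1. It lies 1 base before the annotated start, so a read that starts 1 base downstream of it begins with the first nucleotide of the rRNA. Its ratio was 88.9%, 87.1% and 93.3% in the cKO libraries, against 86.0%, 88.5%, 92.3% and 87.5% in the WT libraries. The groups overlapped, with means of 89.8 ± 3.21% in cKO (SD, n = 3) and 88.6 ± 2.70% in WT (SD, n = 4), and the exact permutation test over the 35 ways to divide 7 libraries into 3 and 4 gave p = 0.543 (two-sided). Coverage here was among the lowest of all sites, 63 to 330 reads in cKO and 64 to 164 in WT. The 95% exact Clopper-Pearson interval was therefore wide, as in cKO replicate 1 (78.4% to 95.4%) and WT replicate 4 (76.8% to 94.4%). Such intervals cover counting error only.

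The second highest site was position 1864, nucleotide 771 of mt-Rnr2, and it was deeply covered. Its ratio was 73.2%, 70.5% and 33.1% in the cKO libraries, against 73.9%, 70.5%, 69.5% and 72.9% in the WT libraries. Replicates 1 and 2 of cKO lay inside the WT range and replicate 3 lay far below it. The cKO mean was 58.9 ± 22.4% (SD, n = 3) and the WT mean 71.7 ± 2.03% (SD, n = 4), with exact permutation p = 0.257 (two-sided). Coverage was 21886, 26098 and 79698 reads in cKO and between 30631 and 59391 in WT. Read starts numbered 16014, 18391 and 26372 in cKO and between 22322 and 43904 in WT. Replicate 3 of cKO thus had the highest coverage of all libraries at this site, with read starts inside the WT range. These counts were not scaled to library depth, and summed over all distinct sites the coverage of this library was 241671149, the highest in cKO. In WT replicate 1, where that sum was 243732230, the site had 59391 reads and 43904 read starts. Whether the read starts of cKO replicate 3 were few for its depth was not tested.

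The other sites at the top of mt-Rnr1 were positions 327, 702, 506 and 503 (nucleotides 258, 633, 437 and 434). At position 327 the ratio was 46.7%, 45.9% and 29.3% in cKO, against 45.2%, 45.5%, 46.6% and 47.4% in WT. At position 702 it was 41.6%, 38.5% and 18.7% in cKO, against 38.2%, 38.5%, 36.3% and 43.3% in WT. At position 506 it was 29.8%, 33.1% and 6.30% in cKO, against 31.9%, 33.5%, 31.9% and 40.6% in WT. In each of these 3 sites cKO replicate 3 was the lowest of the 7 libraries. Position 503 gave 29.8%, 29.4% and 12.1% in cKO, against 33.0%, 30.6%, 34.0% and 20.9% in WT, with replicate 3 of cKO again the lowest. The exact permutation p of these 4 sites lay between 0.0857 (position 506) and 0.486 (position 702).

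In mt-Rnr2 the next sites were positions 2164, 1635, 1986 and 1985 (nucleotides 1071, 542, 893 and 892). Position 1635 had the lowest single value of these sites, with 27.0%, 30.0% and 2.93% in cKO, against 33.2%, 25.7%, 30.8% and 43.8% in WT. It had 63, 150 and 3928 reads of coverage in cKO and 268, 187, 250 and 89 in WT. Its read starts numbered 17, 45 and 115 in cKO and 89, 48, 77 and 39 in WT, so cKO replicate 3 had the most read starts and the lowest ratio. Position 2164 gave 29.5%, 32.6% and 7.17% in cKO, against 37.5%, 33.1%, 34.4% and 45.0% in WT. The 2 adjacent cytidines at 1985 and 1986 averaged 17.2 ± 8.31% and 17.8 ± 7.24% in cKO (SD, n = 3) and 21.9 ± 2.34% and 23.2 ± 3.06% in WT (SD, n = 4). At all of them cKO replicates 1 and 2 were within 4 percentage points of the lowest WT library or inside the WT range.

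**Figure D2:**
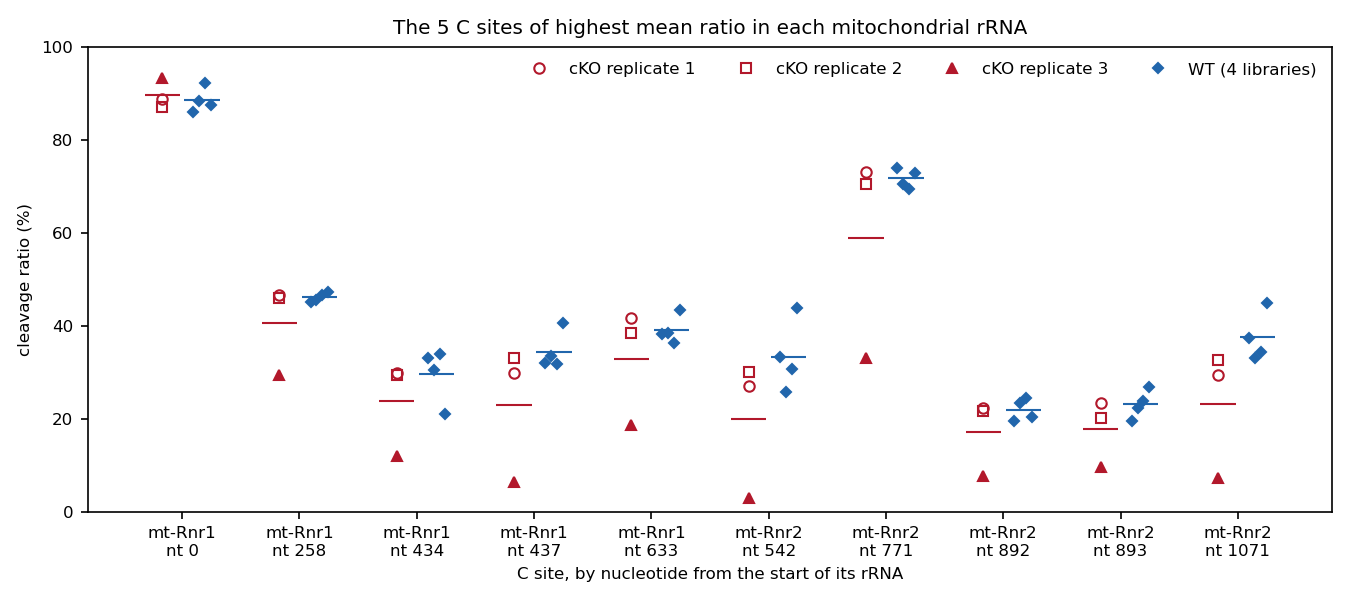
Cleavage ratio in percent (y axis) of the 5 sites of highest mean ratio in each rRNA (x axis, by nucleotide), with one point per library and a bar at the group mean, cKO left of WT. The filled triangle, cKO replicate 3, lies lowest at 9 of the 10 sites, for example at 33.1% at nucleotide 771 of mt-Rnr2, while it is the highest at nucleotide 0 of mt-Rnr1.

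The deepest covered sites had low ratios. Position 361 of mt-Rnr1 (nucleotide 292) was covered by 100178 to 294564 reads in cKO and 320366 to 449077 in WT. Its ratio was 0.252%, 0.306% and 0.364% in cKO, against 0.299%, 0.317%, 0.295% and 0.305% in WT. Position 1251 of mt-Rnr2 (nucleotide 158) gave 0.606%, 0.209% and 0.431% in cKO, against 0.186%, 0.216%, 0.254% and 0.264% in WT, where cKO replicates 1 and 3 lay above the WT range. At the listed ends, position 1002 of mt-Rnr1 gave 5.00%, 0% and 0.610% in cKO, against 1.63% to 4.48% in WT, at a coverage of only 40, 60 and 492 reads in cKO and 67 to 130 in WT. It had 2 or 3 read starts in each WT library. Listing needs more than 1 there, so a ratio of 0% could occur in cKO only. The first listed site of mt-Rnr2, position 1095, gave 2.90% to 3.89% in cKO and 3.55% to 3.84% in WT, and the last, position 2633, gave 0.386% to 0.699% in cKO and 0.358% to 0.511% in WT.

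A pair of cytidines of mt-Rnr1 near the decoding centre are known targets of other methyltransferases in mouse. METTL15 makes 4-methylcytidine at position 909 and NSUN4 makes 5-methylcytidine at position 911, and both sites were singled out here after their values were seen. Position 909 (nucleotide 840) had a ratio of 0.293%, 0.497% and 0.112% in cKO, against 0.457%, 0.188%, 0.571% and 0.758% in WT. Position 911 (nucleotide 842) had 0.607%, 0.628% and 0.154% in cKO, against 0.584%, 0.315%, 0.613% and 0.717% in WT. Both lay below the median site of mt-Rnr1, the groups overlapped, and the exact permutation p was 0.286 at position 909 and 0.571 at position 911 (two-sided).

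Averaged over all sites, the genotypes differed by less than the spread between cKO libraries. The mean ratio over the 149 sites of mt-Rnr1 was 4.97%, 4.35% and 3.37% in the cKO libraries, against 4.14%, 4.28%, 4.46% and 4.87% in the WT libraries. The group means were 4.23 ± 0.807% in cKO (SD, n = 3) and 4.44 ± 0.315% in WT (SD, n = 4). Over the 241 sites of mt-Rnr2 it was 4.10%, 3.52% and 2.46% in cKO, against 3.48%, 3.57%, 3.69% and 4.22% in WT, with means of 3.36 ± 0.831% in cKO (SD, n = 3) and 3.74 ± 0.333% in WT (SD, n = 4). Without cKO replicate 3 both differences turned round, from -0.21 to 0.219 percentage points in mt-Rnr1 and from -0.38 to 0.0666 in mt-Rnr2. The medians over sites lay the other way from the means, at 1.38 ± 0.215% in cKO and 1.13 ± 0.147% in WT for mt-Rnr1, and at 1.53 ± 0.191% in cKO and 1.34 ± 0.106% in WT for mt-Rnr2 (SD, n = 3 and n = 4).

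Replicate 3 of cKO stood apart from the other 6 libraries in the shape of its ratios. Over the 12 sites with a WT mean of at least 20%, the mean ratio was 38.1%, 38.2% and 20.2% in the cKO libraries, against 38.6%, 37.8%, 39.0% and 41.1% in the WT libraries. Over the 70 sites from 5% to 20% it was 10.3%, 9.16% and 5.28% in cKO, against 9.06%, 9.35%, 9.84% and 11.8% in WT. Replicate 3 was the lowest of the 7 libraries at 11 of these 12 and 53 of these 70 sites, and below both other cKO libraries at 11 and 63.

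At sparsely cleaved sites the order was the other way. Over the 174 sites with a WT mean under 1%, the mean ratio was 0.516%, 0.391% and 0.728% in cKO, against 0.340%, 0.369%, 0.373% and 0.406% in WT, and cKO replicate 3 was the highest of the 7 libraries at 103 of them. Over the 134 sites from 1% to 5% it was 3.44%, 2.44% and 2.65% in cKO, against 2.23%, 2.42%, 2.48% and 2.62% in WT. There cKO replicate 1 was the highest library at 61 sites. The WT mean set these ranges, so sites whose WT values happened to be high fall in the upper ranges and those with low values in the lower ones, which alone moves the cKO minus WT difference up in low ranges and down in high ones. The differences are therefore given as a description. Without cKO replicate 3, the cKO minus WT difference was 0.0813 points under 1%, 0.498 from 1% to 5%, -0.28 from 5% to 20% and -1.03 at 20% or more, against 0.173, 0.404, -1.77 and -7.0 with it. The rank correlation of ratios over the 390 sites was 0.798 to 0.870 between cKO replicate 3 and each other library, and 0.946 to 0.989 among the other 6, given as a description since all libraries share the same sites.

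**Figure D3:**
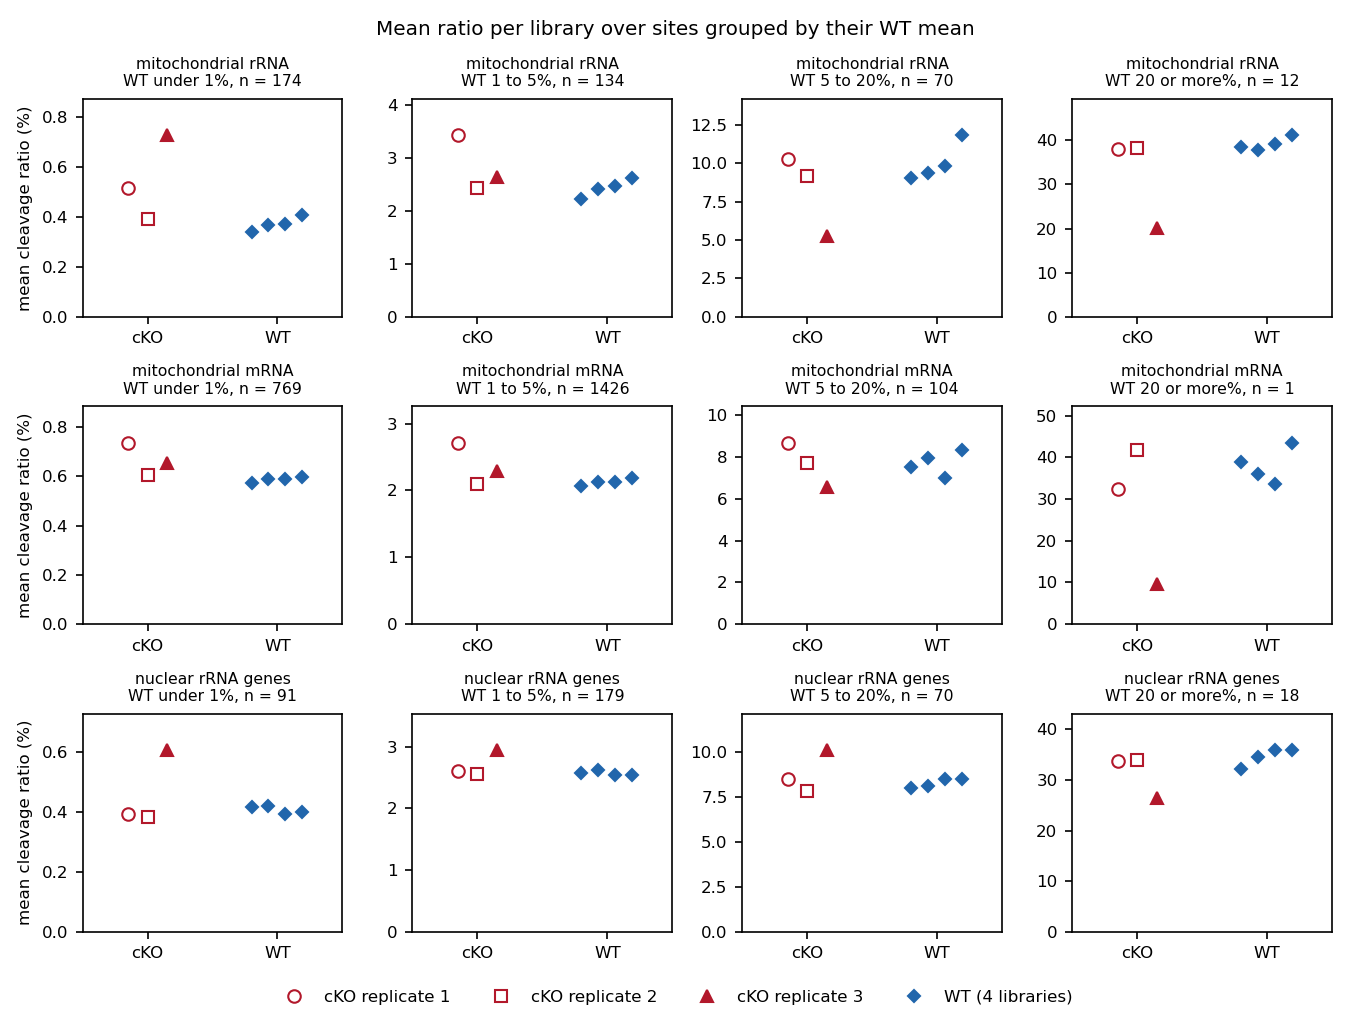
Mean cleavage ratio in percent (y axis) of each library, cKO left of WT, over sites grouped by their WT mean (columns) for mitochondrial rRNA, mitochondrial mRNA and nuclear rRNA genes (rows, n sites above each panel). In mitochondrial rRNA the filled triangle, cKO replicate 3, is the highest at 0.728% where WT was under 1% and the lowest at 20.2% where WT was 20% or more.

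The same library was compared with the others at sites of other transcripts. The 1 mitochondrial mRNA site with a WT mean of at least 20% had 32.4%, 41.7% and 9.59% in cKO, against 38.8%, 36.0%, 33.6% and 43.5% in WT, with cKO replicate 3 far below the rest. At the 104 sites of mitochondrial mRNAs with a WT mean from 5% to 20%, the mean ratio was 8.68%, 7.73% and 6.58% in cKO, against 7.52%, 7.96%, 7.0% and 8.33% in WT. At the 70 sites of nuclear rRNA genes in that range, cKO replicate 3 was above the others, with 8.49%, 7.85% and 10.1% in cKO, against 7.99%, 8.10%, 8.50% and 8.50% in WT. At the 18 sites of nuclear rRNA genes of at least 20%, it was below them, with 33.7%, 33.9% and 26.3% in cKO, against 32.1%, 34.5%, 35.9% and 35.9% in WT. These differences between classes of sites were not tested.

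Coverage along the rRNAs also set cKO replicate 3 apart. In the other libraries coverage fell steeply at the same places, while in this library it fell much less. At position 503, in the dip near nucleotide 434 of mt-Rnr1, coverage was 57, 126 and 4048 reads in cKO, against 279, 180, 200 and 86 in WT. Over the 12 sites of highest ratio the median coverage was 308, 472 and 4848 reads in cKO, against 820, 605, 728 and 349 in WT. Over the 174 sites under 1% it was 10290, 15158 and 50550 in cKO, against 23390, 20252, 24710 and 14349 in WT, a much smaller excess. Coverage summed over all mitochondrial rRNA sites did not set this library apart, at 5336830, 10653107 and 19520803 in cKO, against 20848683, 14704301, 16744993 and 14102741 in WT. Nuclear rRNA genes also had high coverage in cKO replicate 3. At their 91 sites under 1% the median was 4240, 2649 and 27396 reads in cKO, against 2282 to 4163 in WT. At their 18 sites of at least 20% it was 2898.5, 2045.5 and 15264 in cKO, against 1856 to 3072 in WT. At mitochondrial mRNA sites from 5% to 20% its median of 768 was below WT (985.5 to 1473). The part that coverage has in the low ratios of cKO replicate 3 was not tested.

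As a share of coverage at all sites, the mitochondrial rRNAs took 3.56%, 7.51% and 8.08% in cKO, against 8.55%, 7.74%, 8.33% and 8.25% in WT. Replicate 1 of cKO was far below the other 6 libraries and the remaining cKO libraries lay close to the WT range. The means were 6.38 ± 2.46% in cKO (SD, n = 3) and 8.22 ± 0.343% in WT (SD, n = 4), and without cKO replicate 1 the difference shrank from -1.84 to -0.43 points. In bulk RNA, fewer cells of a type and less RNA per cell cannot be told apart. Coverage and ratio had rank correlations from -0.44 to -0.32 over 390 sites in every library, a description of sites that share libraries and reads. Coverage is the denominator of the ratio, and a site was listed only with more than 1 read start in each WT library. A negative correlation can follow from these rules alone.

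**Figure D4:**
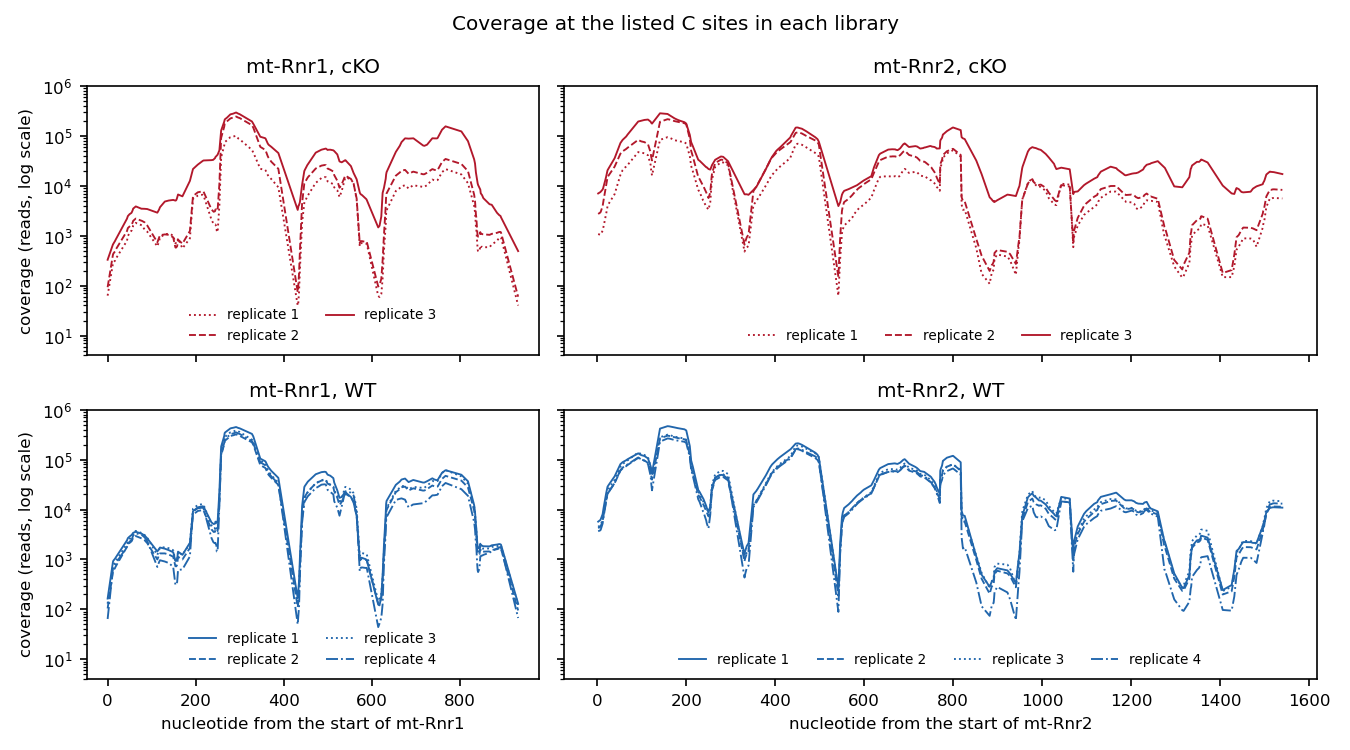
Coverage in reads (y axis, log scale) at the listed C sites by nucleotide from the start of mt-Rnr1 and mt-Rnr2 (x axis), cKO above WT, with one line per library. The dips seen in 6 libraries, such as 57 to 279 reads at nucleotide 434 of mt-Rnr1, are filled in cKO replicate 3 (solid line, 4048 reads at that site).

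The genotype effect was tested per site with a quasi-binomial model on all 13240 sites of the whole table with a mean ratio of at least 5%, of which 81 were in the mitochondrial rRNAs (31 in mt-Rnr1 and 50 in mt-Rnr2). None of the 81 passed a Benjamini-Hochberg adjusted p of 0.05, where the share of all tested sites called was 0.00755%, and the lowest adjusted p was 0.518. At an unadjusted p under 0.05, 50 sites were lower in cKO and 6 higher, against 2.02% of all tested sites lower and 6.62% higher. Lower and higher refer to the difference of the unweighted means of the libraries. The p-value comes from reads pooled within each genotype, which can differ in the other direction. The median difference was -1.65 points over the 81 sites and 0.57 points over all tested sites, and 65 of the 81 had a lower mean in cKO. By rRNA, 24 of 31 sites in mt-Rnr1 and 41 of 50 in mt-Rnr2 had a lower mean in cKO.

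These counts rested on 1 library. Without cKO replicate 3, 1 site was lower and 6 were higher at an unadjusted p under 0.05, against 0.922% of all sites lower and 5.81% higher, the median difference was -0.02 points, and 43 of 85 tested sites had a lower mean in cKO. Replicate 3 lay below all 4 WT libraries at 61 of the 81 sites. Replicate 1 lay below all WT libraries at 21 sites and above all at 23, and replicate 2 lay below at 18 and above at 8. Without cKO replicate 2, 5 rRNA sites passed the adjusted threshold, all lower in cKO (positions 314, 1106, 1107, 1425 and 2529), against 0.155% of all tested sites. The quasi-binomial model weights libraries by coverage. With limma on arcsine square root values of the ratio, which weights them equally, 5 sites were lower and 1 higher at an unadjusted p under 0.05 (1.9% and 5.97% of all sites), and none passed adjustment. Without a minimum on the ratio, 85 of 390 sites were lower and 167 higher in cKO at an unadjusted quasi-binomial p under 0.05 (2.56% and 4.78% of all 87065 sites). Without cKO replicate 3, under the same rule and threshold, 7 were lower and 63 higher (2.51% and 3.79% of all sites).

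The libraries of the 2 genotypes did not overlap at 8 of the 81 sites. All cKO libraries were below all WT libraries at 7 sites and above them at 1, against 2.03% and 5.43% of all tested sites. The 7 were positions 82 and 229 in mt-Rnr1 and positions 1424, 2049, 2163, 2164 and 2165 in mt-Rnr2, the last 3 being adjacent cytidines whose reads overlap. At position 229 (nucleotide 160) the ratio was 9.47%, 11.6% and 3.79% in cKO, against 13.4%, 15.3%, 13.5% and 26.2% in WT (exact permutation p = 0.0286, two-sided, the smallest this design allows). At position 1424 (nucleotide 331) it was 9.98%, 7.12% and 1.74% in cKO, against 13.4%, 11.7%, 10.1% and 19.6% in WT (exact permutation p = 0.0571). A small exact permutation p follows from choosing sites without overlap, so it adds no support here. Position 2049 (nucleotide 956) had the smallest difference of means among the 7, with 10.6%, 10.1% and 8.57% in cKO, against 12.2%, 10.8%, 11.2% and 10.8% in WT. After adjustment over all tested sites the quasi-binomial p of positions 229, 1424, 2049 and 2164 was 0.518 at each.

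The single site with all cKO libraries above WT was position 2411, nucleotide 1318 of mt-Rnr2. Its ratio was 10.97%, 10.3% and 8.44% in cKO, against 7.14%, 7.08%, 5.94% and 4.30% in WT, with means of 9.92 ± 1.32% in cKO (SD, n = 3) and 6.12 ± 1.33% in WT (SD, n = 4). The exact permutation p was 0.0286 (two-sided), which again follows from the choice of a site without overlap. The difference was 4.54 points without cKO replicate 3 against 3.80 with it. Coverage was 155, 261 and 10175 reads in cKO and 93 to 303 in WT, and the adjusted quasi-binomial p was 0.575. It was also the only one of the 81 sites with a p under 0.05 in the authors' deposited table (0.0160), where 9 of the 394 sites and 6.01% of all distinct sites had such a p.

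Some sites near the start of mt-Rnr1 were also higher in cKO without separating the groups. Of the 6 tested sites in nucleotides 1 to 100 of mt-Rnr1, 5 had a higher mean in cKO, against 2 of 8 in the same stretch of mt-Rnr2. These counts depend in part on the 5% minimum, which was set on the mean over all 7 libraries. Positions 113 and 115 reached it only through their cKO values, with WT means of 4.54% and 4.31%. In mt-Rnr2 the same held for position 1145, where every WT library lay below 5%. Sites of the mt-Rnr1 stretch below the minimum differed in both directions. Position 86 gave 6.29%, 6.37% and 10.1% in cKO, against 4.81%, 6.65%, 5.30% and 5.11% in WT, and its difference of 2.13 points was 0.861 without cKO replicate 3. Position 113 averaged 6.48 ± 1.57% in cKO and 4.54 ± 0.794% in WT (SD, n = 3 and n = 4). Position 115 gave 10.9%, 4.43% and 5.69% in cKO, against 3.97%, 4.09%, 3.95% and 5.23% in WT, and position 127 averaged 7.66 ± 1.25% in cKO and 5.88 ± 1.47% in WT. The difference at position 127, 1.78 points, was 1.06 without cKO replicate 1 and 1.10 without WT replicate 1. In mt-Rnr2, position 1145 gave 14.2%, 3.43% and 6.93% in cKO, against 2.99%, 3.32%, 3.82% and 3.87% in WT, where cKO replicate 1 was the highest. Position 1709 had the lowest unadjusted quasi-binomial p in the higher direction, 0.00119 (adjusted 0.518), with 6.13%, 6.93% and 8.16% in cKO, against 5.74%, 5.81%, 5.78% and 6.14% in WT. Its difference was 1.21 points, and 0.664 without cKO replicate 3 (unadjusted p 0.00581, adjusted 0.737). Position 1715 averaged 6.12 ± 0.741% in cKO and 5.50 ± 0.277% in WT, and its difference of 0.619 points was 0.205 without cKO replicate 3. Position 1339 averaged 8.24 ± 4.74% in cKO and 8.15 ± 2.51% in WT. With reads pooled within each genotype, its ratio was lower in cKO, where replicate 3 gave 4.31% at 23529 reads. The exact permutation p of these 8 sites ran from 0.0571 to 0.943.

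The sites with the smallest p in the lower direction that have not been described yet were positions 314 and 319 in mt-Rnr1 and 2424, 2428 and 2525 in mt-Rnr2. Position 314 had the lowest unadjusted quasi-binomial p of all rRNA sites, 9.15e-04 (adjusted 0.518), with 8.84%, 11.8% and 5.86% in cKO, against 11.7%, 12.9%, 13.8% and 11.3% in WT. Its difference of -3.61 points was -2.13 without cKO replicate 3. Position 319 gave 5.93%, 5.41% and 1.59% in cKO, against 5.97%, 5.84%, 6.39% and 14.3% in WT, where replicate 3 of cKO was the lowest and replicate 4 of WT the highest. Its difference of -3.82 points was -2.46 without cKO replicate 3 and -1.76 without WT replicate 4. Positions 2424, 2428 and 2525 averaged 8.77 ± 2.66%, 5.30 ± 1.45% and 8.83 ± 1.64% in cKO and 11.5 ± 2.04%, 7.37 ± 1.51% and 10.8 ± 2.81% in WT (SD, n = 3 and n = 4). Without cKO replicate 3 their differences went down in size to -1.17, -1.24 and -1.19 points, from -2.69, -2.06 and -1.96 with it, and their unadjusted quasi-binomial p lay between 0.266 and 0.317, against 0.00168 to 0.00259 with it. At position 2525 the difference was -3.34 points without WT replicate 4. All 5 had overlapping groups, with exact permutation p from 0.0857 to 0.314.

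RNA-seq was used to ask whether the nuclear genes that make, modify and assemble the mitochondrial rRNAs differed between genotypes. Of 40 listed genes, 39 were tested and none passed an adjusted p of 0.05 in edgeR's quasi-likelihood test, where the share of all 13105 genes called was 0% (805 genes had an unadjusted p under 0.05). DESeq2 called 2 genes and limma voom 1 gene, none of them in the list. At an unadjusted p under 0.05, 1 list gene was higher in cKO and 1 lower, against 2.86% and 3.28% of all genes tested. The median log2 fold change, cKO over WT, was 0.016 over the list and -0.001 over all genes tested, with 25 list genes above 0 and 14 below. In the 4 groups of the list, 6 of 9 genes of transcription and processing, 7 of 10 modification enzymes, 3 of 8 genes of rRNA stability and small-subunit assembly and 9 of 12 of large-subunit assembly lay above 0. These fold changes were adjusted for library set, so near 0 their sign can differ from that of the group means. Mrm2 and Mterf4, for example, lay above 0 with a lower mean CPM in cKO. Mettl15 and Fastkd2 lay below 0 with a higher one.

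The 2 genes with an unadjusted p under 0.05 belong to transcription and processing. Tfb2m encodes the factor that helps the mitochondrial RNA polymerase open promoters, and it lay between 3.83 and 5.55 CPM in cKO with a median of 4.70, and between 2.74 and 4.18 CPM in WT with a median of 3.23. The means were 4.77 ± 0.665 CPM in cKO and 3.27 ± 0.504 CPM in WT (SD, n = 6 each). Its log2 fold change was 0.53 (SE 0.173) with an edgeR adjusted p of 0.803, and the groups overlapped. Hsd17b10, a subunit of the protein-only RNase P that cuts the 5′ ends of mitochondrial tRNAs, lay between 123 and 154 CPM in cKO with a median of 137, and between 145 and 169 CPM in WT with a median of 154. It averaged 136 ± 12.1 CPM in cKO and 157 ± 9.61 CPM in WT (SD, n = 6 each). Its log2 fold change was -0.18 (SE 0.0591), again with an edgeR adjusted p of 0.803.

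None of the 8 named genes of rRNA modification had an unadjusted p under 0.05. Nsun4 averaged 48.1 ± 1.66 CPM in cKO and 51.4 ± 4.84 CPM in WT, a log2 fold change of -0.08. Mterf4, whose protein guides NSUN4 to the ribosome, stood at 25.6 ± 3.70 CPM in cKO and 26.6 ± 4.41 CPM in WT (SD, n = 6 each). Mettl15 averaged 46.2 ± 3.90 CPM in cKO and 45.5 ± 3.63 CPM in WT. Tfb1m, which dimethylates adenines of the small-subunit rRNA, averaged 10.3 ± 1.87 CPM in cKO and 9.59 ± 1.85 CPM in WT. Mrm1, Mrm2 and Mrm3, which methylate riboses of the large-subunit rRNA, averaged 3.14, 7.90 and 5.81 CPM in cKO and 2.42, 8.60 and 4.85 CPM in WT. Mrm1 had the largest log2 fold change of the 8, 0.28. Trmt61b, a methyltransferase of adenines in mitochondrial RNA, averaged 6.93 CPM in cKO and 6.87 CPM in WT. The most abundant list genes besides Hsd17b10 were Dhx30, a helicase of large-subunit assembly, at 154 ± 16.0 CPM in cKO and 147 ± 16.6 CPM in WT, and Fastkd2, an RNA-binding protein of the same step, at 121 ± 12.4 CPM in cKO and 119 ± 10.8 CPM in WT (SD, n = 6 each). The edgeR adjusted p of these 10 genes lay between 0.870 and 0.998.

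**Figure D5:**
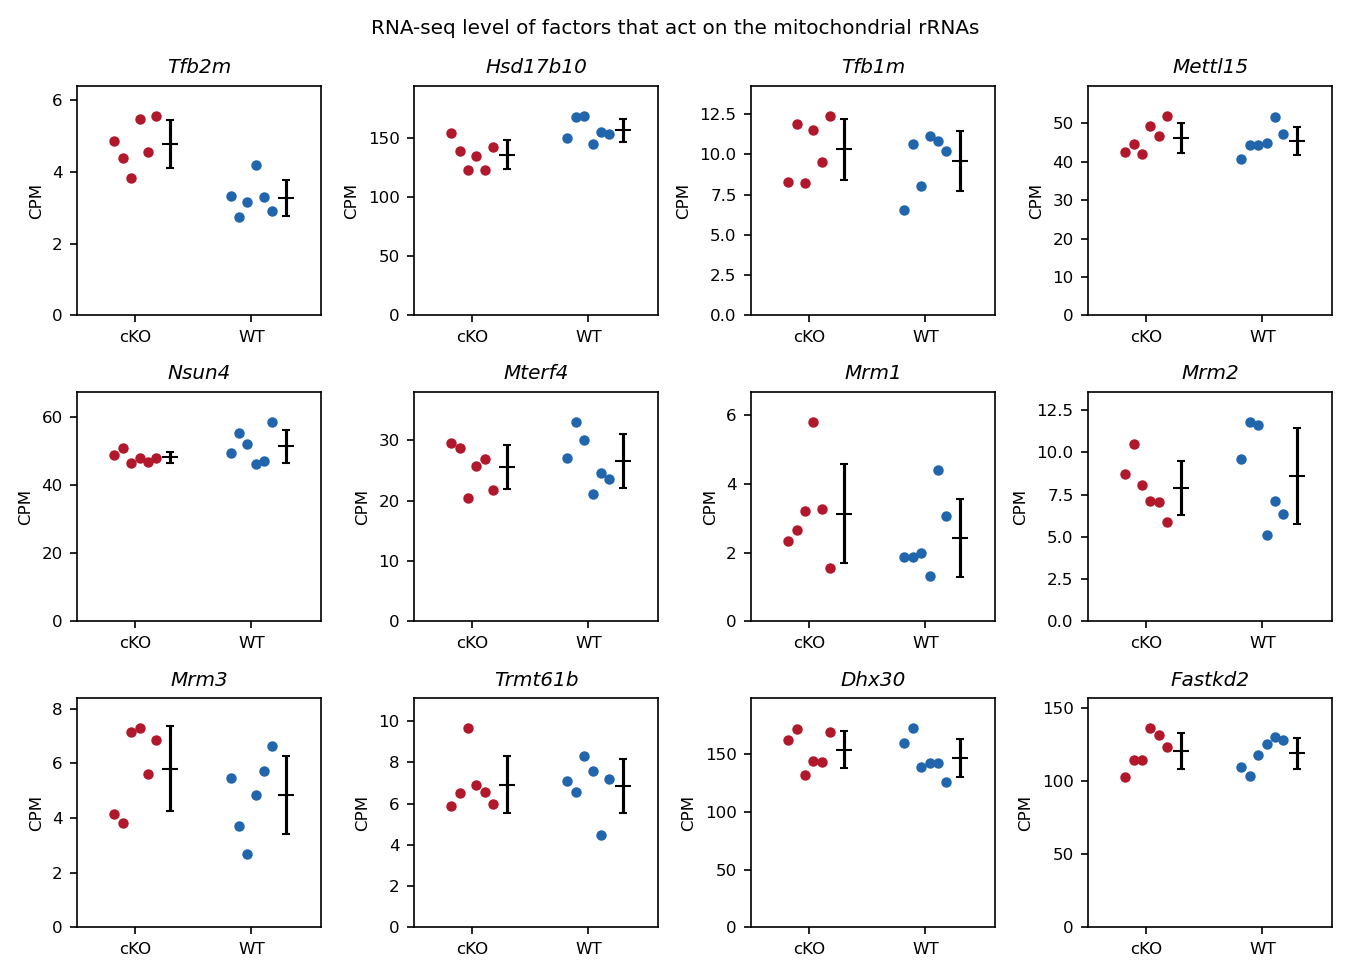
RNA-seq level in CPM (y axis, from 0) of 12 nuclear genes that act on the mitochondrial rRNAs, with one point per library and the mean ± SD beside them, cKO (n = 6) left of WT (n = 6). The points of the 2 genotypes overlap in each panel. Tfb2m has the largest log2 fold change of the 12, 0.53 (4.77 CPM in cKO, 3.27 CPM in WT).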

How the data were processed

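The submitters' processing notes name STAR 2.5.2a, Trimmomatic 0.32 and bcl2fastq 2.17.1.14, and the builds GRCm38.p6 (HAC-seq) and GRCm38 (RNA-seq). In RNA-seq the deposited values are raw counts per gene. For each C site and library the deposited HAC-seq table gives the read starts 1 bp downstream (whole numbers, a signal without normalization), the coverage as a count of reads, their quotient as a fraction, and a p-value whose test is not given in the sources used here. Per the file headers, a site is listed only with more than 1 read start in each WT library, and the smallest number found there was 2. Recomputed quotients matched the deposited fraction, and ratios are printed as percentages. The number of sample columns left out was 0.

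A quasi-binomial model (R 4.3.3) of starts given coverage had dispersions squeezed by limma 3.58.1 with a floor of 1, a two-sided F test and Benjamini-Hochberg adjustment over the 13240 sites that reached 50 reads in every library and a mean ratio of 5%. In 10 draws of simulated data for these sites it recovered 51% to 62% of 200 sites changed by 1.5 on the logit scale, and 3.91% to 11.3% of its calls (mean 7.67%) were false, somewhat more than the nominal 5%. The simulation used the same overdispersion at every site and held no outlying library. Its recovery therefore does not describe rRNA sites where cKO replicate 3 stood apart, such as positions 327 and 1864 with fitted dispersions of 1587 and 3643. RNA-seq counts were tested with edgeR 4.0.16 (TMM, filterByExpr, quasi-likelihood, library set as covariate), with DESeq2 1.42.0 and limma voom as alternatives. In 1 draw of simulated counts for the 13105 genes edgeR recovered 99% of 200 genes changed 2-fold, and 6.16% of its calls were false. mt-Rnr1 and mt-Rnr2 were not among the 26621 genes of the RNA-seq table, so their RNA-seq level was not analysed here. Same-numbered cKO and WT libraries were not treated as pairs.

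Members and gene lists were chosen with earlier results of these data known. In each rRNA the text names the 5 sites of highest mean ratio, the 5 of smallest p in each direction, the first and last site and the deepest covered site. Named genes are the list members with an unadjusted p under 0.05, the 3 most abundant and 8 modification factors. Older symbols were matched through RefSeq.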

Additional observations from a re-analysis of the deposited data

Results flagged for a closer look

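Among 59 groups of 4 or 6 libraries examined for 1 value far from the others, 5 had one, and chance flags about 1 group in 20. In WT, replicate 4 stood above the other 3 WT libraries at 4 named sites. It had 26.2% at position 229 and 14.3% at position 319 of mt-Rnr1, 5.23% at position 115 of mt-Rnr1, and 6.14% at position 1709 of mt-Rnr2. In RNA-seq, Trmt61b stood at 9.67 CPM in cKO replicate 3, above the other 5 cKO libraries.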

How the results depend on the processing

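Same-numbered libraries were not treated as pairs. Deviations from the group means correlated at -0.008, -0.018 and 0.035 for replicates 1, 2 and 3 of HAC-seq. In RNA-seq they correlated at -0.36 for replicate 3, whose cKO and WT libraries belong to different library sets, and at 0.373 to 0.621 for the other 5 numbers, against 0.254 to 0.615 for differently numbered libraries of 1 set. With a replicate block, 0 rRNA sites and 0 list genes were called, as without it, 9 rRNA sites were lower and 4 higher at an unadjusted p under 0.05, and the mean over mt-Rnr1 and mt-Rnr2 differed by -0.07 and -0.22 points, the same values as without WT replicate 4, which has no cKO partner. No rRNA site was called with coverage minima of 20 or 100 reads, ratio minima of 1% or none, limma, or with any 1 library left out except cKO replicate 2 (0 to 5 sites called), and no list gene was called under any alternative (0 to 0 when 1 library was left out).

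The cKO minus WT difference of mean ratios was -0.21 points in mt-Rnr1 and -0.38 in mt-Rnr2. With medians over sites it was 0.25 and 0.188, and over only the sites with a mean ratio of at least 5% it was -1.93 and -2.64. Summed starts over summed coverage gave 0.31 in mt-Rnr2. Leaving out 1 library gave -0.58 to 0.219 in mt-Rnr1 and -0.75 to 0.0666 in mt-Rnr2, the extremes being without cKO replicates 1 and 3. The share of coverage differed by -1.84 points, with -2.69 to -0.43 when 1 library was left out. The cause was not tested for any of these.

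Without cKO replicate 3, differences at 503, 506, 1635, 1986, 2049 and 2164 shrank by more than 1.5 times, to -0.02, -3.02, -4.88, -1.34, -0.89 and -6.48 points, and without WT replicate 4 that at 229 shrank to -5.74. Some named sites changed direction. Leaving out 1 library gave differences of -0.57 to 2.55 points at position 69, -8.54 to 0.151 at 327, -10.5 to 0.957 at 702, -2.54 to 2.05 at 1339, -19.9 to 0.105 at 1864 and -7.25 to 0.123 at 1985. Alternatives without cKO replicate 3 in ranges of sites, for shares of coverage and without a ratio minimum were chosen after seeing the data. The RNA-seq level of mt-Rnr1 and mt-Rnr2 gave no value. The precision at sites in coverage dips was limited by under 100 reads in some libraries.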
